A study of Homo sapiens with 8 samples.

Results

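Translation initiation factors and the kinases that act on eIF2 were read from all probes whose gene name in the array design starts with EIF. There were 90 such probes, for 57 gene names, among 50599 probes for 36337 gene names on the array. The names cover 53 initiation factors, their binding proteins, paralogs and kinases, and 4 Argonaute genes that the design lists as EIF2C1 to EIF2C4. The samples were HEK293 cells, an established line of human embryonic kidney origin, carrying a tetracycline-inducible transgene at a single Flp recombination site. GFP cells expressed the green fluorescent protein alone and served as control. HuR cells expressed GFP-HuR, and TIA1 and TIAR cells expressed GFP-TIA1 and GFP-TIAR. For the TIA1 2 array the title names GFP-TIA1 but the source name reads GFP-TIA2, and it was kept with TIA1. All lines were given tetracycline and carry a GFP sequence, so the transgenes differ only in what is fused to GFP. Each line was measured on 2 arrays from independent cultures per the labels, 8 arrays in all, and whether more than 1 clone stands behind a line was not stated.

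Initiation in human cells starts when eIF2 carries the initiator tRNA to the small ribosomal subunit, where eIF1, eIF1A, eIF3 and eIF5 hold it in a scanning complex. The mRNA is brought in through its cap by eIF4E, which binds the scaffold eIF4G and the helicase eIF4A, and the 4E-binding proteins compete with eIF4G for eIF4E. After each round eIF2B reloads eIF2 with GTP, and the EIF2 kinases, by phosphorylating the alpha subunit of eIF2, slow that exchange. TIA1, TIAR and HuR are RNA-binding proteins with a preference for U-rich or AU-rich sequence, and TIA proteins are known as translational repressors. The arrays measured mRNA, so neither phosphorylation nor protein amount was read.

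Levels are given as log2 signal relative to the array's own 75th percentile, so that 0 is the signal of a fairly bright probe, and each level is compared only with the same probe on other arrays. A gene was called where at least 1 of its probes differed by 2-fold or more with a limma adjusted p under 0.05. Of the 90 probes, 85 exceeded the background clearly on both arrays of some line and were tested, for 55 of the 57 genes. The other 5 probes included the only ones for EIF4E1B and EIF3IP1. The GFP 1 array stood apart from the other arrays: the share of probes well above background was 86.1% there and 53.3% to 58.6% elsewhere, and its local background averaged 83.2 against 35.7 to 41.5. EIF4E1B and EIF3IP1 were above background on GFP 1 only. All 8 arrays lay on 1 slide. As a check of the labels, the TIAL1 probe A_23_P161488, for the TIAR gene, read 4.87 and 4.98 in TIAR cells and 1.63 to 2.52 in the other lines, while the dim probe A_33_P3293869 of the same gene read -4.12 and -3.85 in TIAR and -3.57 and -3.61 in HuR cells. The TIA1 probes A_23_P90845 and A_24_P405430 were lower in TIA1 cells (-1.26 to -0.94) than in HuR cells (-0.60 to 0.06), and the ELAVL1 probe for HuR overlapped between HuR (0.33 and 0.42) and TIAR (0.23 and 0.82) cells, so these probes did not check their labels. Markers of HEK293 (VIM, NEFL, NEFM, INA, KRT8 and KRT18) were above background on all HuR, TIA1 and TIAR arrays for 6 of 6 genes. Of 9 blood, fibroblast and endothelium markers, 5 were above background on all of those arrays. They were COL1A1 (-2.38 to -1.22), DCN (-4.51 to -3.01), CDH5 (-4.52 to -3.58), PTPRC (-4.66 to -3.94) and VWF (-5.10 to -3.80 by its 2 brighter probes). CD3E and PECAM1 were above background on some of those arrays and COL3A1 on none. COL1A1 was higher than in HuR cells by 0.83 in TIA1 and 1.00 in TIAR cells, and DCN by 0.38 and 1.46. VWF stood at 1.03 and 0.55 on A_23_P105562 and at 0.20 and 0.06 on A_21_P0012280. CDH5 stood at 0.09 and -0.29, and PTPRC at -0.18 and -0.01. Of the HEK293 markers, NEFL (-1.40 and -1.68) and NEFM (-0.74 and -1.05) were lower than in HuR cells and INA (0.73 and 0.38) was higher. Probes of KRT8, KRT18 and VIM lay between -0.38 and 0.82. The part of these markers in the results was not tested.

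Compared with HuR cells, 6 of the 55 tested EIF genes were lower in TIA1 cells and none was higher. These were EIF4E, EIF4A2, EIF4EBP2, EIF2B3, EIF2D and EIF3C, lower by 2.11-fold to 3.47-fold. In TIAR cells 6 of 55 genes were also lower than in HuR cells and none was higher, and these were EIF4E, EIF4EBP2, EIF2B3, EIF2B5, EIF2D and EIF1AX, lower by 2.01-fold to 3.19-fold. Among all gene names tested, 15.9% were called for TIA1 versus HuR, 10.2% higher and 5.79% lower, so the EIF share called lower, 10.9%, is to be read against 5.79%. For TIAR versus HuR 12.3% of all gene names were called, 8.63% higher and 3.66% lower, again against 10.9% lower among EIF genes. A gene with more probes is called more easily, and the shares were not matched for this. The 55 EIF genes had 85 tested probes, while for TIA1 versus HuR all 21244 gene names had 28745. The median log2 fold change over the 85 EIF probes was -0.19 for TIA1 and -0.25 for TIAR, while that of all probes tested was 0.08 and 0.05. Below 0 lay 68.2% of EIF probes against 44.3% of all probes for TIA1, and 72.9% against 45.4% for TIAR. All probes were not matched to the EIF probes for signal, and the gap depended on the processing. With no filter on dim probes the medians of all probes were 0.33 and 0.22, against -0.18 and -0.24 for EIF probes. With the authors' values they were 0.0 and -0.05, against -0.17 and -0.12. Since RNA came from whole cultures, fewer cells of a kind and less RNA per cell cannot be told apart in any of these values.

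By the adjusted p alone, 23 EIF genes (41.8%, background 46.7%) passed for TIA1 versus HuR, 16 of them with lower and 7 with higher values. For TIAR versus HuR 17 genes (30.9%, background 35.3%) passed, 15 lower and 2 higher. The HuR arrays serve in each of these comparisons, which are therefore not independent. The TIAR calls needed both HuR arrays: without HuR 1 or without HuR 2, no EIF gene was called there (0 of 55), although the 6 fold changes kept much of their size (-1.78 to -0.96, against -1.67 to -1.01 with both arrays), with limma adjusted p from 0.053 to 0.089. In those fits 3.22% and 2.76% of all gene names were called for TIAR. For TIA1 the calls that depended on a HuR array were EIF4A2, at -1.38 without HuR 1 and -1.33 without HuR 2, and EIF4EBP2, at -0.98 without HuR 2. EIF4E for TIA1, and EIF4E, EIF2B5 and EIF2D for TIAR, are among the genes that the study itself selected on these same arrays. Their direction here is therefore not independent evidence. The paper also measured selected mRNAs by qPCR and EIF4E protein by western blot, and reports that protein and qPCR results went together.

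**Figure D1:**
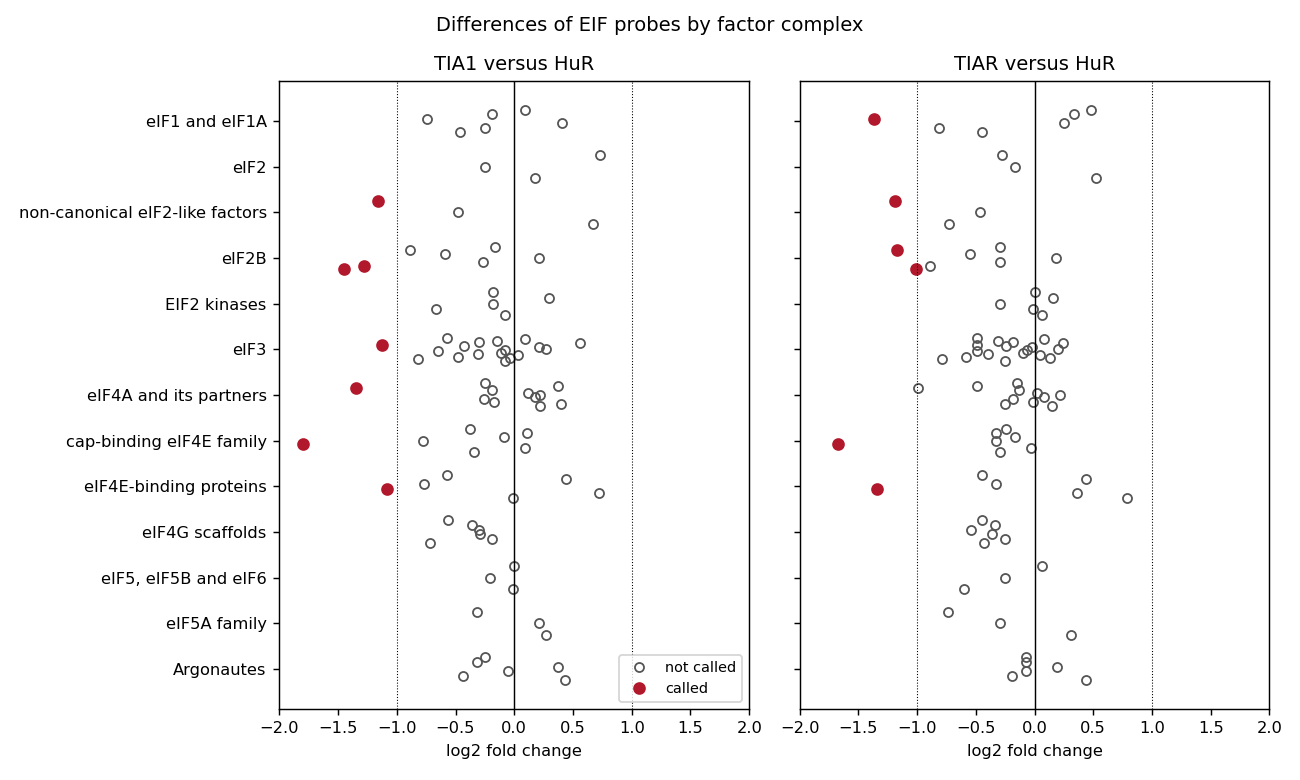
Log2 fold change of each tested EIF probe (circles, horizontal axis) by factor complex (rows), for TIA1 versus HuR on the left and TIAR versus HuR on the right, without the EIF1AY probe. Dotted lines mark a 2-fold difference, and filled circles are called probes; all of them lie left of 0, from -1.80 to -1.08 for TIA1 and from -1.67 to -1.01 for TIAR.

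EIF4E, the cap-binding protein, was read by 3 probes on the minus strand of chromosome 4 (hg19), and they gave different answers. The 5′ probe lies at chr4:99806144-99806203, the middle probe at chr4:99801521-99801580 and the 3′ probe at chr4:99800575-99800634, 946 bases beyond the middle probe. The design assigns the 3′ probe to NM_001130679 and the other probes to NM_001968. The leading 30 of the 60 bases of each probe are printed because the result for EIF4E depends on which of them is read, in the sense of the mRNA as the design lists them, all in lower case since no base is singled out.
EIF4E 5′ probe, A_24_P349560: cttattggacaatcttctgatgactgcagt
EIF4E middle probe, A_23_P118643: ggtgaaggatccaggaatatgacacaaagg
EIF4E 3′ probe, A_32_P203300: aatgttttgtacatagtacatacttgtata

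On the 3′ probe EIF4E read 1.15 and 1.36 in HuR cells, -0.44 and -0.64 in TIA1 cells, -0.69 and -0.15 in TIAR cells, and -0.21 and -0.07 in GFP cells. The HuR arrays stood above all the others, and the TIAR arrays lay on either side of GFP 1 and below GFP 2. The difference was -1.80 ± 0.13 (SE, n = 2 per line), or 3.47-fold lower, for TIA1 versus HuR (limma adjusted p = 0.0032), and -1.67 ± 0.22, or 3.19-fold lower, for TIAR versus HuR (limma adjusted p = 0.012). On the middle probe the levels were 2.07 and 2.21 in HuR, 1.36 and 2.17 in TIA1, 1.89 and 1.91 in TIAR, and 1.91 and 1.98 in GFP cells. On the 5′ probe they were -0.09 and -0.02 in HuR, -0.05 and -0.25 in TIA1, -0.14 and -0.31 in TIAR, and -0.39 and -0.12 in GFP cells. The lines lay close together on the 5′ probe, and on the middle probe apart from TIA1 1, at 1.36. The fitted differences from HuR for TIA1 and TIAR were -0.38 and -0.24 on the middle probe and -0.09 and -0.17 on the 5′ probe. They did not pass (limma adjusted p from 0.15 to 0.54). Over the alternatives the TIA1 difference on the middle probe ranged from -0.78 to 0.03. The difference between probes was itself tested with diffSplice of limma, a test added after the data were seen. The 3′ probe departed from the other EIF4E probes by -1.56 for TIA1 versus HuR (adjusted p = 0.007) and by -1.47 for TIAR versus HuR (adjusted p = 0.0037). In the whole array 2392 of 12851 probes passed that test for TIA1 and 1552 of 12954 for TIAR. Without HuR 1 or HuR 2 the TIAR difference of the 3′ probe lay at -1.78 or -1.57 and lost its call, whereas the TIA1 difference kept it. With no filter on dim probes the TIAR difference of -1.67 missed the threshold (limma adjusted p = 0.051).

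**Figure D2:**
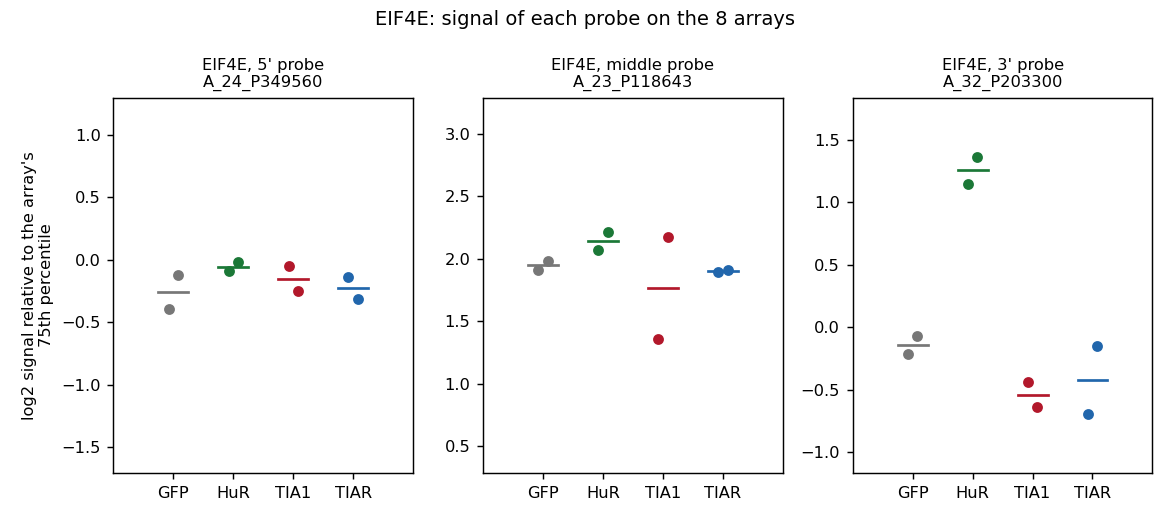
Log2 signal of the 3 EIF4E probes (panels, from 5′ to 3′ along the gene) on each array (points) with the mean of each line (bars); every vertical axis spans the same 3 log2 units. The HuR arrays stand above the other lines on the 3′ probe, at 1.15 and 1.36, and lie among them on the 5′ probe.

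Among the relatives and binding partners of EIF4E, EIF4EBP2, which encodes a repressor that sequesters eIF4E, was lower in both TIA lines. Its probe A_24_P115621 (chr10:72188314-72188373, plus strand) read 0.96 and 1.17 in HuR, -0.05 and 0.03 in TIA1, -0.22 and -0.34 in TIAR, and 0.66 and 1.06 in GFP cells. All TIA1 and TIAR arrays were thus below all GFP and HuR arrays. The difference from HuR was -1.08 ± 0.12 for TIA1 (limma adjusted p = 0.0056) and -1.34 ± 0.12 for TIAR (limma adjusted p = 0.0068). The TIA1 call was lost without HuR 2, at -0.98. The brighter probe of the gene, A_23_P115922, which is spotted 10 times, read 2.57 and 2.52 in HuR, 1.95 and 2.00 in TIA1, 2.02 and 2.18 in TIAR, and 2.69 and 3.03 in GFP cells. Here too the TIA1 and TIAR arrays lay below all HuR and GFP arrays, but the differences of -0.57 and -0.45 from HuR were under 2-fold. The probes differed from each other by 0.90 for TIAR versus HuR (diffSplice adjusted p = 0.018), and by 0.51 for TIA1 versus HuR (adjusted p = 0.054), which did not pass. The remaining members of these families were not called. The paralogs EIF4E2 and EIF4E3 had 4 tested probes between -0.78 and 0.11 for TIA1, and EIF4EBP1 had a log2 fold change of -0.77 for TIA1 and -0.33 for TIAR. EIF4ENIF1, the eIF4E transporter, had values between -0.01 and 0.79 over 3 probes in both comparisons.

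EIF4A2, a paralog of the main eIF4A helicase, was read by 1 probe at chr3:186507026-186507085 (plus strand). It gave 4.39 and 4.45 in HuR, 2.74 and 3.39 in TIA1, 3.40 and 3.46 in TIAR, and 3.44 and 4.13 in GFP cells. The TIA1 arrays differed by more than those of HuR or TIAR, and both TIA lines lay below HuR. EIF4A2 was 2.56-fold lower in TIA1 than in HuR cells (-1.35 ± 0.24, limma adjusted p = 0.017). For TIAR the difference was -0.99 (limma adjusted p = 0.0074), just short of 2-fold. Without HuR 1 and without HuR 2 the TIA1 call was lost at -1.38 and -1.33. The helicase EIF4A1 itself had 4 probes between -0.26 and -0.01 across both comparisons, and none of EIF4A1, EIF4A3, EIF4B and EIF4H was called. All 6 probes of the eIF4G scaffolds were below 0 in both comparisons, with no call. They ranged from -0.72 to -0.19 for TIA1 and from -0.54 to -0.25 for TIAR. Without TIA1 1 the TIA1 difference of the dimmer EIF4G2 probe, A_33_P3306545, was -1.02, past 2-fold. EIF4G2 read 5.60 and 5.55 in HuR, 5.01 and 5.02 in TIA1, 5.07 and 5.17 in TIAR, and 4.95 and 5.21 in GFP cells on its brighter probe. EIF4G1 read 3.60 and 3.66 in HuR, 3.35 and 3.31 in TIA1, 2.92 and 3.26 in TIAR, and 3.73 and 4.01 in GFP cells. Both TIA lines lay below HuR for each gene, while GFP enclosed the TIA arrays for EIF4G2 and stood highest for EIF4G1. The differences from HuR, -0.56 and -0.45 for EIF4G2 and -0.30 and -0.54 for EIF4G1, stayed under 2-fold.

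The eIF2B exchange factor has 5 subunits, of which EIF2B3 (gamma) and EIF2B5 (the catalytic epsilon subunit) differed. EIF2B3 was read by a pair of probes near its 3′ end, chr1:45316514-45316573 and chr1:45316485-45316544 (minus strand), and by a probe at chr1:45444011-45444070 that lies closer to the 5′ end. The brightest, A_33_P3296372, read 3.27 and 3.22 in HuR, 1.96 and 1.98 in TIA1, 2.36 and 2.35 in TIAR, and 2.75 and 2.84 in GFP cells. The order of the lines was HuR, GFP, TIAR, TIA1, with no overlap. The fold changes against HuR were -1.28 ± 0.09 for TIA1 (limma adjusted p = 0.0029) and -0.89 ± 0.09 for TIAR (limma adjusted p = 0.0083). Its neighbour A_33_P3305482, whose sequence overlaps it, gave -1.45 and -1.01, the second only just past 2-fold. The 5′ probe A_23_P115046 read 1.38 and 1.41 in HuR, 0.69 and 0.92 in TIA1, and 0.72 and 0.98 in TIAR cells. Its differences of -0.59 and -0.55 were smaller, for TIA1 by 0.77 relative to the other probes (diffSplice adjusted p = 0.003).

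EIF2B5, whose probe is spotted 10 times and maps to chr3:183861961-183862392 (plus strand), a stretch longer than its 60 bases, read 0.91 and 1.09 in HuR cells. It gave -0.02 and 0.23 in TIA1, -0.29 and -0.06 in TIAR, and -0.22 and 0.22 in GFP cells. HuR stood above the other lines, GFP overlapped both TIA lines, and TIAR lay below TIA1. EIF2B5 was 2.26-fold lower in TIAR than in HuR cells (-1.17 ± 0.14, limma adjusted p = 0.01), and lower by less than 2-fold in TIA1 (-0.89 ± 0.14, limma adjusted p = 0.012). Without TIA1 2 the TIA1 difference was -1.02 and was called. The other subunits were not called: EIF2B1 had -0.16 and -0.29, EIF2B2 -0.27 and -0.29, and EIF2B4 0.21 and 0.18 for TIA1 and TIAR against HuR. EIF2B1 read 3.50 and 3.49 in HuR, 3.32 and 3.35 in TIA1, and 3.21 and 3.20 in TIAR cells. EIF2B2 read 3.46 and 3.36 in HuR, 3.16 and 3.12 in TIA1, and 2.93 and 3.32 in TIAR cells. EIF2B4 read 1.81 and 1.84 in HuR, 2.05 and 2.02 in TIA1, and 2.17 and 1.83 in TIAR cells. The regulatory alpha, beta and delta subunits that these genes encode therefore lay within 0.30 of HuR on the log2 scale.

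**Figure D3:**
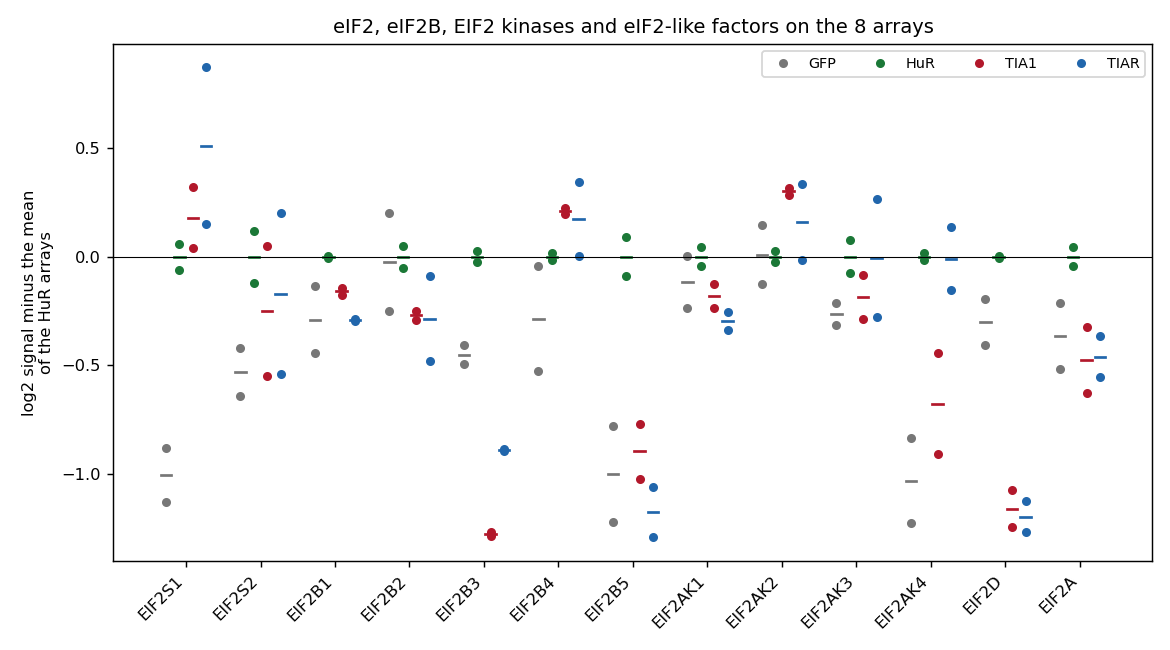
Log2 signal minus the mean of the HuR arrays (vertical axis) for the brightest tested probe of each gene of the eIF2 cycle and of EIF2D and EIF2A; points are arrays, 2 per line, and short bars are line means. EIF2B3, EIF2B5 and EIF2D lie well below 0 in TIA1 and TIAR cells, while the line means of EIF2S1, EIF2S2 and the EIF2 kinases other than EIF2AK4 lie between -0.29 and 0.52 in those cells.

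Of eIF2 itself, the alpha subunit EIF2S1, which the kinases phosphorylate, read 0.75 and 0.63 in HuR, 0.73 and 1.01 in TIA1, 1.56 and 0.84 in TIAR, and -0.44 and -0.19 in GFP cells. The HuR, TIA1 and TIAR lines lay above GFP and close to each other, with differences from HuR of 0.18 and 0.52 that did not pass. Against GFP, EIF2S1 was called higher with all 8 arrays in 1 fit in TIA1 (1.18, limma adjusted p = 0.032) and TIAR cells (1.52, limma adjusted p = 0.024). The beta subunit EIF2S2 was read by a pair of probes. A_32_P157965 gave 1.66 and 1.90 in HuR, 1.23 and 1.83 in TIA1, and 1.24 and 1.98 in TIAR cells, with overlap throughout. A_24_P48791 gave 0.50 and 0.38 in HuR, 1.33 and 1.00 in TIA1, 0.08 and 0.24 in TIAR, and 0.45 and 0.91 in GFP cells. On the latter, TIA1 exceeded HuR by 0.73 (limma adjusted p = 0.023), under 2-fold, and TIAR lay below TIA1 by 1.01 without passing (limma adjusted p = 0.054). No probe carries the name EIF2S3, the gamma subunit.

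None of the 4 EIF2 kinase genes was called in any of the 6 comparisons of 4 arrays. EIF2AK1, the haem-regulated kinase HRI, read 2.70 and 2.61 in HuR, 2.53 and 2.42 in TIA1, 2.40 and 2.32 in TIAR, and 2.42 and 2.66 in GFP cells. EIF2AK2, the double-stranded RNA sensor PKR, read 2.23 and 2.28 in HuR, 2.57 and 2.54 in TIA1, and 2.24 and 2.59 in TIAR cells on its brighter probe. Its dimmer probe, A_33_P3224858, read -1.48 and -1.48 in HuR, -2.02 and -1.11 in TIA1, and -1.05 and -1.79 in TIAR cells. The fitted differences there were -0.08 and 0.06, with TIA1 and TIAR arrays on either side of HuR. EIF2AK3, the endoplasmic reticulum stress kinase PERK, was dim and read -2.09 and -1.94 in HuR, -2.10 and -2.30 in TIA1, and -1.75 and -2.29 in TIAR cells. All of these differed from HuR by 0.30 or less on the log2 scale. EIF2AK4, the amino acid sensor GCN2, read 1.69 and 1.72 in HuR, 0.80 and 1.26 in TIA1, 1.84 and 1.55 in TIAR, and 0.48 and 0.87 in GFP cells. TIA1 lay below HuR by 0.67 ± 0.18 in EIF2AK4 (limma adjusted p = 0.045), under 2-fold, and TIAR overlapped HuR. Against GFP, EIF2AK4 was called higher in TIAR cells with all 8 arrays in 1 fit (1.02, limma adjusted p = 0.042) and without GFP 2 (1.21), and in HuR cells without GFP 2 (1.22).

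EIF2D, which can deliver initiator tRNA without eIF2 and releases tRNA and mRNA from recycled subunits, was read by a probe spotted 10 times at chr1:206770472-206770531 (minus strand). The levels were 2.04 and 2.03 in HuR, 0.96 and 0.79 in TIA1, 0.77 and 0.91 in TIAR, and 1.63 and 1.84 in GFP cells. Both TIA lines lay below GFP as well as below HuR, and overlapped each other. EIF2D was 2.24-fold lower in TIA1 (-1.16 ± 0.11, limma adjusted p = 0.0043) and 2.29-fold lower in TIAR (-1.19 ± 0.10, limma adjusted p = 0.0062) than in HuR cells. EIF2A, another factor that can bind initiator tRNA, read 1.75 and 1.66 in HuR, 1.38 and 1.08 in TIA1, and 1.34 and 1.15 in TIAR cells on its brighter probe. Those differences of -0.48 and -0.46 were not called.

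Of the scanning factors, EIF1AX, which encodes eIF1A, was lower in TIAR than in HuR cells on its 3′ probe A_24_P237389 (chrX:20142959-20143018, minus strand). The levels were 3.81 and 3.94 in HuR, 3.14 and 3.12 in TIA1, 2.53 and 2.47 in TIAR, and 2.72 and 2.93 in GFP cells. No lines overlapped, with TIAR lowest. TIAR was 2.59-fold lower than HuR (-1.37 ± 0.10, limma adjusted p = 0.0054), and TIA1 was lower by 0.74 (limma adjusted p = 0.0086), under 2-fold. The other EIF1AX probes, which overlap each other around chrX:20146174-20146255, gave -0.81 and -0.45 for TIAR. The 3′ probe departed from them by -0.74 (diffSplice adjusted p = 0.019). EIF1, EIF1B and EIF1AD were not called and ranged from -0.19 to 0.48 over both comparisons.

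The eIF3 complex, which bridges mRNA and the small subunit, had 14 gene names on the array and 18 tested probes, and only EIF3C was called. EIF3C on A_23_P77568 (chr16:28746857-28746916, plus strand) read 7.37 and 7.31 in HuR, 6.18 and 6.24 in TIA1, 6.81 and 6.90 in TIAR, and 6.96 and 7.33 in GFP cells. TIA1 lay below every other array. The difference was -1.13 ± 0.09 for TIA1 (limma adjusted p = 0.0037) and -0.49 for TIAR (limma adjusted p = 0.029), and the second EIF3C probe gave -0.82 and -0.79. EIF3C has a near-identical copy in the genome, so the signal cannot be assigned to 1 locus with certainty. The median log2 fold change of eIF3 probes was -0.13 for TIA1 and -0.21 for TIAR. EIF3L was higher in TIA1 by 0.56 (limma adjusted p = 0.013), and EIF3M (-0.65 and -0.49) and both EIF3J probes (-0.57 and -0.48 for TIA1, -0.49 and -0.58 for TIAR) were lower in both lines, all past the adjusted p but under 2-fold. EIF3L stood at 0.24 in TIAR, EIF3I at -0.43 and -0.24, EIF3B and EIF3E between -0.40 and -0.15, and EIF3A, EIF3D, EIF3F, EIF3G, EIF3H and EIF3K lay between -0.25 and 0.27.

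**Figure D4:**
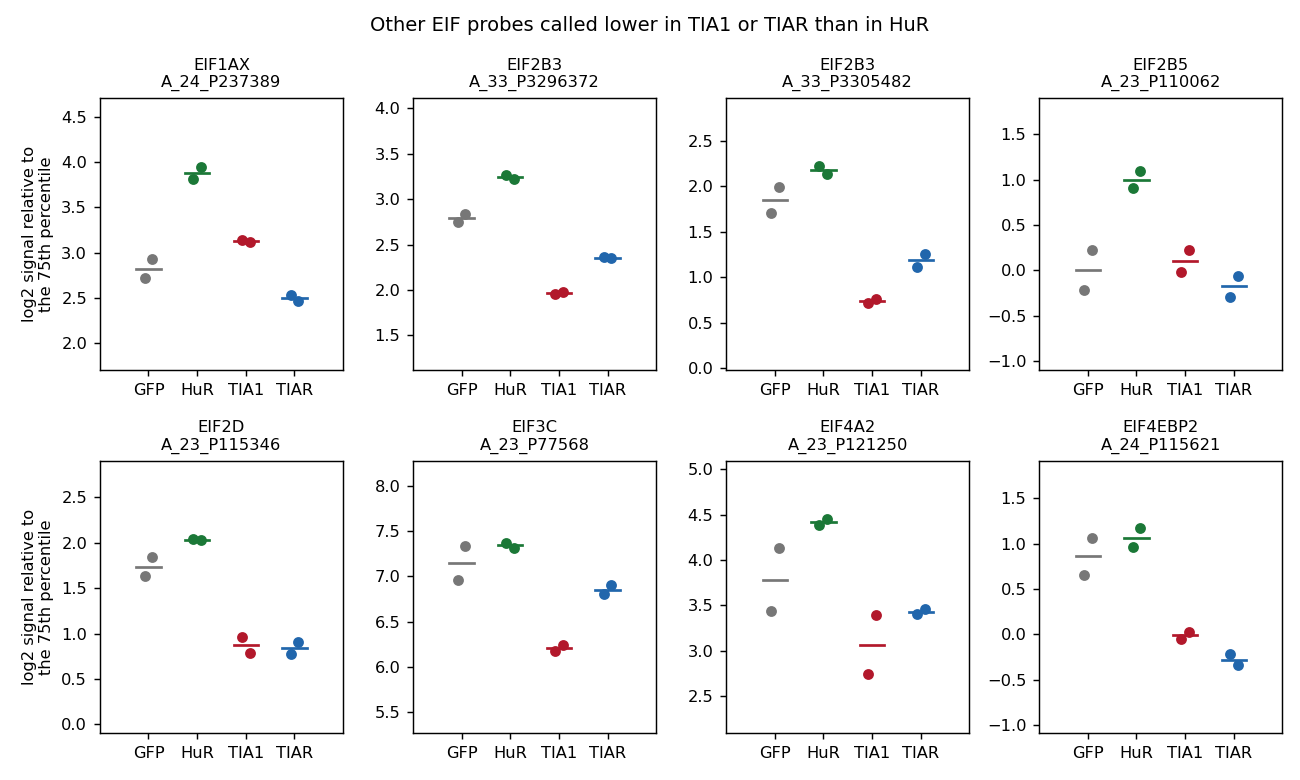
Log2 signal (vertical axes, each spanning 3 log2 units) of the EIF probes other than EIF4E that were called lower than in HuR cells in TIA1 or TIAR cells; points are arrays and bars line means. HuR is the highest line by its mean in every panel, and GFP lies near the TIA lines for EIF1AX and EIF2B5 but above them for EIF2D and EIF4EBP2.

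The late factors eIF5, eIF5B and eIF6, the eIF5A family and the Argonautes held no call against HuR. EIF6, an anti-association factor of the large subunit, read 4.86 and 4.86 in HuR, 4.85 and 4.87 in TIA1, 4.97 and 4.87 in TIAR, and 5.09 and 5.48 in GFP cells. EIF5B, the GTPase of subunit joining, read 0.90 and 1.02 in HuR, 0.74 and 0.76 in TIA1, and 0.74 and 0.69 in TIAR cells. EIF5A, the hypusine-containing elongation factor, read 3.28 and 3.42 in HuR, 2.78 and 3.27 in TIA1, and 2.49 and 2.72 in TIAR cells, lower in TIAR by 0.74 (limma adjusted p = 0.022), under 2-fold. Its paralog EIF5A2 read -0.98 and -0.85 in HuR, -0.80 and -0.61 in TIA1, and -1.35 and -1.05 in TIAR cells. EIF2C2, now AGO2, read 2.30 and 2.10 in HuR, 2.03 and 1.86 in TIA1, and 2.17 and 2.08 in TIAR cells. EIF2C1, now AGO1, was called on neither of its probes, with 0.43 and -0.44 for TIA1 and 0.44 and -0.19 for TIAR. The EIF2C1 probes differed from each other for TIA1 versus HuR by 0.87 (diffSplice adjusted p = 0.027).

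Against GFP cells no EIF gene was called in TIA1, TIAR or HuR cells by limma (0 of 55 each, background 0%), and 15, 11 and 14 of the 85 EIF probes had an unadjusted p under 0.05. The methods' t-test also called 0, for EIF genes and for all gene names alike. Leaving out either GFP array moved these counts, in fits where the GFP line is 1 array that is assumed to vary like the other line. Without GFP 1 they were 5 for TIA1, 1 for TIAR and 1 for HuR, or 9.09%, 1.82% and 1.82% of tested EIF genes, where 8.25% to 14.0% of all gene names were called. Without GFP 2, with GFP 1, the array that stood apart, as the only control, they were 6, 7 and 8 (10.9%, 12.7% and 14.5%), where 28.9%, 26.3% and 29.9% of all gene names were called. A fit of the 7 other arrays together without GFP 1, added after the data were seen, called 5, 3 and 1 genes (9.09%, 5.45% and 1.82%), and 15.1%, 12.4% and 7.76% of all gene names. In that fit of 7 arrays TIA1 cells were lower than GFP in EIF2B3 (-1.25, limma adjusted p = 0.0032), EIF3C (-1.12), EIF4EBP2 (-1.07) and EIF4A2 (-1.06), and TIAR cells were lower in EIF4EBP2 (-1.34, limma adjusted p = 0.0051) and EIF2D (-1.0). EIF4E on its 3′ probe was higher in HuR than in GFP cells (1.32, limma adjusted p = 0.034), and EIF2S1 was higher in TIAR cells (1.39, limma adjusted p = 0.032). EIF3L, an eIF3 subunit singled out after its values were seen, was the fifth gene for TIA1, with levels of 5.04 and 5.01 in TIA1 against 3.63 and 3.75 in GFP, 4.48 and 4.45 in HuR, and 4.44 and 4.98 in TIAR cells. In the comparisons of 4 arrays each, the 3′ EIF4E probe differed by 1.39 ± 0.18 between HuR and GFP and by -0.40 and -0.28 between the TIA lines and GFP. EIF2D differed by 0.30 between HuR and GFP and by -0.86 and -0.90 for TIA1 and TIAR, and none of these passed there (limma adjusted p from 0.15 to 0.62). With all 8 arrays in 1 fit the EIF4E difference between HuR and GFP was called (1.39, limma adjusted p = 0.026).

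Between the TIA lines 1 of 55 EIF genes was called, EIF2A, where 2.93% of all gene names were called, 1.56% higher and 1.37% lower. It was also the only EIF gene to pass by the adjusted p alone, against a background of 4.35%. Its 3′ probe A_32_P197524 (chr3:150302684-150302743, plus strand) was dim and read -2.65 and -2.69 in TIA1, -3.98 and -4.15 in TIAR, -3.47 and -3.20 in HuR, and -2.80 and -3.46 in GFP cells. TIAR lay below every other array and TIA1 above the HuR arrays. The difference was -1.39 ± 0.12 (limma adjusted p = 0.024), and the call was lost without any 1 of the 4 arrays, at -1.48 to -1.31. On the brighter probe, A_23_P44932, TIAR and TIA1 differed by 0.02, and the difference between the probes was -1.41 (diffSplice adjusted p = 0.03). The median over EIF probes was 0.02 for TIAR versus TIA1.

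For EIF4E, EIF4EBP2, EIF1AX and EIF2B3 the probe with the lowest value against HuR lay nearest the 3′ end among the probes of its gene. Over all 21 EIF genes with several tested probes, the probe nearest the 3′ end had the lowest log2 fold change in 10 (47.6%) for TIA1 versus HuR and in 11 (52.4%) for TIAR versus HuR. Among all genes with several probes that share was 47.9% and 48.6%, so EIF genes at large did not stand apart in this. How these probes fall on alternative 3′ ends was not examined, since the annotation at hand is of another genome build.

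Some translation factors, like the ribosomal proteins, are made from mRNAs that start with an oligopyrimidine tract, a C followed by pyrimidines, through which their translation is controlled. RefSeq starts (GRCh38.p14) were searched on the sense strand for a C followed by at least 4 pyrimidines at the first base. Of the 46 EIF genes searched, 8 (17.4%) had it. EIF3E, EIF3H, EIF4EBP1 and EIF2C2 were among the EIF genes left out of this search. The tract stood in 5.14% of all 27305 genes in the promoter table and in 71.9% of 64 ribosomal protein genes. The EIF share thus covers only a part of the EIF genes, and was not matched to the sets behind the other shares. The EIF matches are printed because they hold called and uncalled members alike, from 10 bases before the start to 20 after it, with the pyrimidine tract in capitals.
EIF2A, chr3:150546777-150546806, plus strand: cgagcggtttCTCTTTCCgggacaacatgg
EIF2D, chr1:206612446-206612475, minus strand: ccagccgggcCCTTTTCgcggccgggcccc
EIF3D, chr22:36529147-36529176, minus strand: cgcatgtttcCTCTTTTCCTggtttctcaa
EIF3F, chr11:7987327-7987356, plus strand: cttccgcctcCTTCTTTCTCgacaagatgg
EIF3K, chr19:38619178-38619207, plus strand: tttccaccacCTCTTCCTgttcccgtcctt
EIF3M, chr11:32583821-32583850, plus strand: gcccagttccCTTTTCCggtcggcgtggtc
EIF4A2, chr3:186783567-186783596, plus strand: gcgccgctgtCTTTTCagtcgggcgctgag
EIF4B, chr12:53006446-53006475, plus strand: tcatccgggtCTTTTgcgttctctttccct

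Of these 8 genes EIF2D and EIF4A2 were called lower against HuR, and EIF2A, EIF3D, EIF3F, EIF3K, EIF3M and EIF4B were not. Their median log2 fold change, by the brightest probe of each gene, was -0.30 for TIA1 and -0.28 for TIAR. It was -0.19 and -0.25 in the 37 tested genes that were searched and lacked the tract. The ranges were also close, -1.35 to 0.22 with the tract and -1.28 to 0.44 without it for TIA1. A match of letters at an annotated start does not show that the tract is used in these cells.

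Partners and regulators of initiation outside the EIF names (poly(A)-binding proteins and their interactors, recycling and helicase factors, mTOR and MNK kinases, eIF2 phosphatase subunits and hypusine enzymes, 28 genes) held no call in any comparison with HuR or GFP or between the TIA lines, where 15.9% and 12.3% of all gene names were called for TIA1 and TIAR versus HuR. By the adjusted p alone 16 of 28 (57.1%, background 46.7%) passed for TIA1 versus HuR, 10 lower and 6 higher, and 9 (32.1%, background 35.3%) for TIAR versus HuR, 6 lower and 3 higher. Their median log2 fold change was -0.22 and -0.19.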

How the data were processed

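RNA of the 4 lines was hybridised in 1 colour to human Agilent 60-mer arrays (design on hg19). The intensity values were deposited as the authors' scanner software wrote them (Agilent Feature Extraction 10.7.3.1), background-subtracted and detrended within each array. The authors also deposited log2 values after quantile normalization, with the TIAR arrays normalized apart; the submitters' notes name limma. Here log2 processed signals were scaled by each array's 75th percentile, outlier spots were dropped and spots of a probe averaged. A probe was tested where either line had it clearly over background on 2 arrays, with limma 3.58.1 (lmFit and eBayes, R 4.3.3) on the 4 arrays of a comparison, over all probes, with Benjamini-Hochberg adjustment. Calls needed a 2-fold change and an adjusted p under 0.05. The number of arrays, 2 per line, limits the precision. Alternatives were normexp (offset 50), quantile normalization, the authors' values, other filters, all arrays in 1 fit, a replicate block, the methods' t-test and leaving out each array. The limma step was tested on simulated data. Named were all EIF4E, eIF2, eIF2B and EIF2 kinase probes, EIF2D, called members and, in complexes without any, the 2 brightest genes. Members and lists were chosen with earlier results of these data known. All 57 names matched the RefSeq table (GRCh38.p14), 4 of them under a newer symbol. EIF1AY is counted with no value given. Plots used matplotlib and tables pandas. The level of 1 marker gene is not reported here.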

Additional observations from a re-analysis of the deposited data

Results flagged for a closer look

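EIF2A on the 3′ probe A_32_P197524 differed between TIAR and TIA1 cells by -1.39 ± 0.12 on the log2 scale (limma adjusted p = 0.024, n = 2 per line), the 1 EIF probe for which the direct comparison of the TIA lines passed. Against HuR the same probe stood at 0.67 in TIA1 and -0.73 in TIAR cells, on opposite sides of the shared HuR arrays. The probe was dim, at -4.15 to -2.65 across all arrays. The adjusted p ranged from 0.024 to 0.38 over 12 alternatives, 10 of which lost the call. With no filter on dim probes, the replicate block and the methods' t-test, 0% of all gene names were called in this comparison.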

How the results depend on the processing

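Every EIF gene called for TIA1 or TIAR versus HuR was lower under each alternative that called any. For TIA1 versus HuR the main count of 6 became 0 with the methods' t-test. The paper gives a paired t-test as its general statistic, but selected its array genes by a limma false discovery rate. The t-test, run here on 2 pairs of arrays by replicate number, called 0% of all gene names in every comparison. It therefore could not set EIF genes apart from other genes. Leaving out any 1 array changed which EIF genes were called for TIA1. For TIAR versus HuR the 6 became 0 with the methods' t-test and 4 with the authors' values (7.27%, against 5.35% of all gene names). Leaving out an array changed which EIF genes were called there too, and the calls needed both HuR arrays. The cause was not tested. Versus GFP, where 0 were called, all 8 arrays in 1 fit gave 3 genes for TIA1, 4 for TIAR and 3 for HuR (5.45%, 7.27% and 5.45%, against 11.3%, 7.54% and 5.09% of all gene names), the 7 arrays without GFP 1 gave 5, 3 and 1, and leaving out an array gave 0 to 6, 0 to 7 and 0 to 8. The 1 gene for TIAR versus TIA1 became 0 with normexp, the authors' values and all 8 arrays in 1 fit. There 1.27%, 1.42% and 1.57% of all gene names were called. With no filter on dim probes and with the methods' t-test it became 0 where 0% of all gene names were called. It became 2 (3.64%, against 2.45% of all gene names) where probes had to be above background on all 4 arrays. On leaving out any 1 array EIF2A lay at -1.48 to -1.31 and lost its call, as most genes did. Replicate numbers did not pair the arrays (correlations of deviations from -0.09 to 0.184 over 24959 probes). With the replicate block the counts were 6, 6, 0, 0, 0 and 0, so that among EIF genes only EIF2A between the TIA lines lost its call. In that comparison the block called 0% of all gene names, against 2.93% in the main fit, so the loss was not particular to EIF2A. For TIA1 versus HuR, quantile normalization moved the share of calls over all genes that were higher from 63.9% to 51.9%. For TIAR versus HuR that share moved from 70.2% to 57.4%. The median of all probes moved from 0.08 to -0.02 and from 0.05 to -0.03, while the EIF median became -0.23 and -0.22. With the authors' values the EIF median was -0.17 against 0.0 for all probes in TIA1, and only -0.12 against -0.05 in TIAR. EIF2B3 (TIAR) lost its call under 7 of 12 alternatives, and EIF4E (TIAR), EIF4A2 (TIA1) and EIF1AX (TIAR) under 4. Dim probes such as those of EIF2AK3 and EIF4E3 limit what can be seen of small differences.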
